A study of Mus musculus with 8 samples.

Results

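Keratin genes were followed in mammary glands of virgin female mice in which 1 or both copies of the transcription factor gene Sox9 could be deleted by Cre. The family was taken as every gene whose symbol is Krt followed by a digit, which left out the keratin-associated proteins. This gave 52 of the 19938 genes measured, each read by a single probe set. The flox/flox group held 4 glands of MMTV-Cre;Sox9 flox/flox mice, in which both Sox9 copies were floxed. The control group, written flox/+, held 4 glands of MMTV-Cre;Sox9 +/flox mice with 1 floxed and 1 wild-type copy. All 8 mice were 5 weeks old, untreated and of mixed C57BL/6 and FVB strain, and all carried MMTV-Cre, in which a viral promoter used mainly by mammary epithelial cells drives Cre. No group without Cre or without a floxed allele was analysed here. The tissue was the stretch of the fourth gland close to its lymph nodes, so ducts were measured together with fat, stroma and immune cells, and each gland had its own Affymetrix Gene 1.0 ST array.

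Keratins build the intermediate filaments of epithelial cells. A filament needs a type I (acidic) and a type II (basic) partner in equal amounts, and the pair that a cell makes marks its kind and its state. In the mammary duct the inner luminal cells use KRT8 with KRT18 and KRT19, and the outer basal or myoepithelial cells use KRT5 with KRT14. Cells of the epidermis that leave the basal layer switch to KRT1 with KRT10, and the hair follicle has further keratins for the inner root sheath and for the hair shaft. The type I genes form a cluster on chromosome 11, which also carries Sox9, and the type II genes form one on chromosome 15, together with the type I gene Krt18. Of the members 27 lay on chromosome 11 and 25 on chromosome 15.

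The members were sorted by textbook use into simple or luminal keratins (6), basal keratins (4), epidermal keratins (8), keratins of mucosa and cornea (5), keratins of stressed epidermis and nail bed (4), hair sheath keratins (9) and hair shaft keratins (14). Krt90 and Krt222 stayed unclassified. The class is a label taken from other tissues and says nothing of where a transcript came from in these glands.

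To show the start regions of the pairs that the results turn on, the 100 bases before the RefSeq start (GRCm38.p6, on the strand of the gene) are given for the basal pair Krt5 and Krt14, the luminal pair Krt8 and Krt18, and 2 keratins whose values did not overlap between genotypes, Krt10 and Krt28. Capitals mark the TATA box letters TATAAA.
Krt5, chr15:101712906-101713005, minus strand: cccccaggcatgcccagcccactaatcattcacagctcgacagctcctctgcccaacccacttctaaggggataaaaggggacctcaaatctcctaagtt
Krt14, chr11:100206031-100206130, minus strand: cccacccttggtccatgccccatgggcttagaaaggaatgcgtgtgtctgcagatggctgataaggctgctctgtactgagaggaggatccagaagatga
Krt8, chr15:102004343-102004442, minus strand: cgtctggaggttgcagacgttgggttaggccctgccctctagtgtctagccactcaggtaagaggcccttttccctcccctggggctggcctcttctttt
Krt18, chr15:102028116-102028215, plus strand: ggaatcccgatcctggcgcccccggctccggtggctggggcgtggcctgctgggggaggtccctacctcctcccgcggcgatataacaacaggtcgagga
Krt10, chr11:99389365-99389464, minus strand: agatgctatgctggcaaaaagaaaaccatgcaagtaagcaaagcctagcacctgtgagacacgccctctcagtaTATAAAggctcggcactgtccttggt
Krt28, chr11:99374904-99375003, minus strand: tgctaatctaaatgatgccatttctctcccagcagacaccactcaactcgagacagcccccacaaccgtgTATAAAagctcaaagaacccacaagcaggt

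RefSeq windows of 300 bases, 250 before the start and 50 after it, were found for 36 of the 52 members (37 windows). TATAAA on either strand was in 51.4% of the keratin windows and in 13.6% of all 32851 windows. On the strand of the gene and beginning 20 to 40 bases before the start, it was in 35.1% of keratin windows and 1.99% of all windows. By class these well-placed matches were in 5 of 8 hair sheath genes, 4 of 9 hair shaft genes, 2 of 4 mucosal and corneal genes, 1 of 6 epidermal genes (Krt10), 1 of 5 simple keratins (Krt20) and neither of the 2 basal genes with a window. The SOX core letters AACAAT, on either strand, were in 5.41% of keratin windows (Krt42 and Krt73) against 10.7% of all windows. The GC box letters GGGCGG were in 5.41% (Krt7 and Krt75) against 35.7%, and the AP-1 letters TGANTCA in 5.41% (the 2 windows of Krt13) against 7.81%. These are counts of letters within short windows and describe no binding.

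Sox9 read 424, 448, 401 and 366 in the flox/+ glands and 298, 356, 287 and 351 in the flox/flox glands (normalized intensity, the linear probe set signal after quantile normalization). Its log2 difference was -0.33 ± 0.09 (SE), without overlap between genotypes. The 2-sided exact permutation test gave p = 0.0286, the smallest that 4 against 4 glands allow, and limma's adjusted p was 0.256. Neither the floxed stretch of Sox9 nor the place of these probes relative to it is given in the labels. Deposited medians per array lay between 159 and 178. Having 4 arrays per genotype sets the limit on precision. Of the flox/+ glands, replicate 2 stood apart by lymphocyte genes: its summed intensity over 7 measured B cell markers was 4260.3, against 582 to 703 in the other 7 glands. Nothing in the labels says that the replicates came from separate litters or days. The p-values set a difference against the spread among these glands and cannot account for shared litters or days.

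No keratin passed the test between genotypes. The lowest adjusted p among the 52 was 0.294, for Krt28 (limma, Benjamini-Hochberg over all genes), whereas 8 genes of the table passed, or 0.0401% (0.0301% higher and 0.01% lower in flox/flox). Each difference subtracts the flox/+ mean from the flox/flox mean of log2(intensity + 16), and they ran from -0.30 (Krt28) to 0.19 (Krt80). Of the 52 members 40 (76.9%) had a negative difference, against 52.6% of all genes, and the median was -0.07 against -0.01 over all genes. At an unadjusted limma p under 0.05 there were 7 lower members (13.5%, with 5.46% of all genes called in this direction) and 0 higher ones (4.8% of all genes). Groups did not overlap for 5 lower members (9.62%, with 3.16% of all genes called) and for 0 higher ones (2.73% of all genes). Members share chromosomes, cell types and partly sequence, so they are not independent of each other. As deposited, without quantile normalization, the lower members at an unadjusted p under 0.05 numbered 4, beside 3.51% of all genes lower and 6.22% higher, and those without overlap 1, Krt28. Negative differences then numbered 37 of 52, against 44.9% of all genes.

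**Figure D1:**
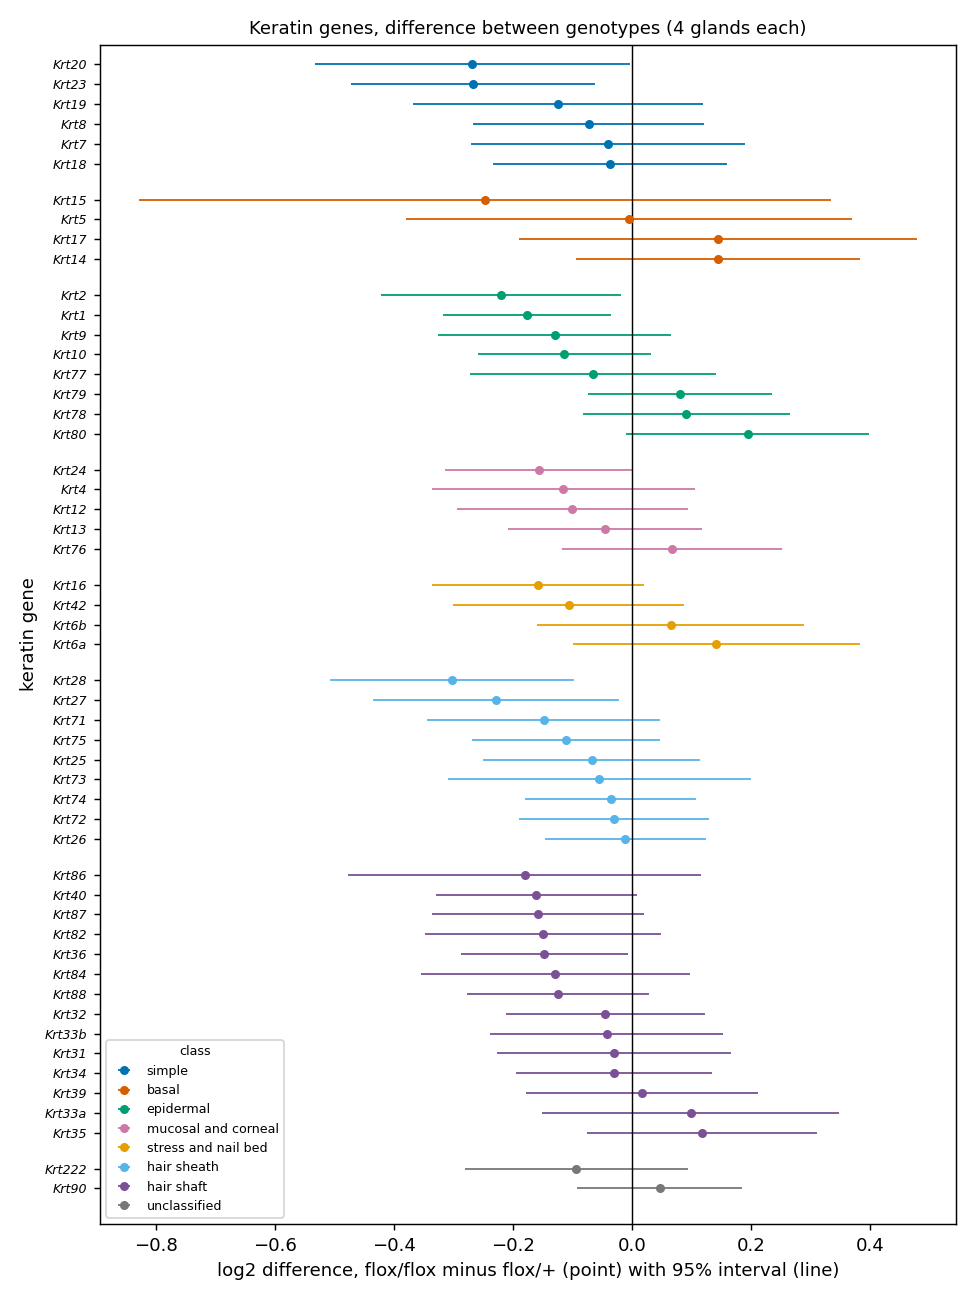
The log2 difference of each of the 52 keratin genes (points, flox/flox minus flox/+, 4 glands each) with its 95% interval from limma (lines), ordered by class. All 6 simple and all 9 hair sheath keratins lie left of 0 (Krt7 and Krt26 turn to the right of it with the values as deposited), and the intervals of Krt15, Krt5 and Krt17 are the widest of the 52.

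The main luminal keratins differed between genotypes by less than the glands of each genotype did among themselves. Krt8, the type II keratin of simple epithelia, read 2643, 2327, 2951 and 2464 in flox/+ glands and 2289, 2321, 2684 and 2561 in flox/flox glands. The ranges overlap over most of their length. The log2 difference of Krt8 was -0.07 ± 0.09 (SE, 95% interval -0.27 to 0.12). Its type I partner Krt18 read 1794, 1597, 1893 and 1964 in flox/+ and 1594, 1659.9, 1865 and 1946 in flox/flox glands, a difference of -0.04 ± 0.09 (95% interval -0.23 to 0.16). The log2 ratio of Krt8 to Krt18 was 0.51 ± 0.13 in flox/+ and 0.48 ± 0.06 in flox/flox glands (SD, n = 4 each).

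Krt19, which labels luminal cells and needs no fixed type II partner of its own, read 4867, 3823, 4858 and 4104 in flox/+ glands. In flox/flox glands it read 3696, 3524, 4368 and 4610.2. Replicates 1 and 2 of flox/flox lay below all controls and replicates 3 and 4 among them. The difference was -0.12 ± 0.11 (95% interval -0.37 to 0.12). Krt7, another duct keratin, had means of 770.1 ± 109 in flox/+ and 745 ± 63.8 in flox/flox glands (SD, n = 4), and the difference of -0.04 turned to 0.00 with the values as deposited.

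The remaining simple keratins, Krt20 and Krt23, were dim. Krt23, a type I keratin of simple epithelia, read 151, 161, 139 and 182 in flox/+ and 113, 124, 135 and 142 in flox/flox glands. All but 1 of the flox/flox values lay below the lowest control. Its log2 difference was -0.27 ± 0.09 (unadjusted p = 0.0157, limma adjusted p = 0.350). Krt20, the intestinal and urothelial keratin, had means of 51.0 ± 9.52 in flox/+ and 39.6 ± 7.67 in flox/flox glands (SD, n = 4). Its log2 difference was -0.27 ± 0.12 (unadjusted p = 0.0475, limma adjusted p = 0.481). An unadjusted p under 0.05 was found in 17 of 18 alternatives for Krt23 and in only 7 of 17 for Krt20. All 6 simple keratins had negative differences (5 as deposited or with median centring, where Krt7 turned), with a median of -0.10. The 19 measured luminal marker genes that are not keratins had a median of 0.03, 12 of them positive, and their summed intensity ran from 12484 to 15517 in flox/+ and from 12854 to 15251 in flox/flox glands. Within that list Prom1, a surface protein of luminal cells, read 169, 137, 169 and 175 in flox/+ and 94.1, 105, 105 and 84.3 in flox/flox glands, without overlap (-0.66 ± 0.09, limma adjusted p = 0.0501). Aldh1a3, an aldehyde dehydrogenase of luminal progenitors, was higher by 0.26 ± 0.08 (limma adjusted p = 0.315). None of the 6 simple keratins passed the adjusted threshold. In this bulk tissue a difference in luminal cell number and one in keratin RNA per cell could not be told apart.

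Basal keratins differed more between flox/flox glands than between genotypes. Krt5, the type II keratin of the basal layer, read 1094, 1046, 1007 and 1175 in flox/+ glands, a narrow band. In flox/flox glands it read 987, 1166, 758 and 1529, so that these glands held both the lowest and the highest value. The log2 difference was -0.00 ± 0.17 (95% interval -0.38 to 0.37), and its sign depended on the scaling: median centring, or no normalization beyond the deposited one, gave 0.02. Its partner Krt14 read 632, 579.9, 562 and 624 in flox/+ and 618, 689, 555 and 820.3 in flox/flox glands, a difference of 0.15 ± 0.11 (95% interval -0.09 to 0.38). Krt17, made by basal cells and skin appendages, read 341, 312, 299 and 324 in flox/+ and 297, 349, 291 and 517 in flox/flox glands, a difference of 0.14 ± 0.15 (95% interval -0.19 to 0.48). For Krt5, Krt14, Krt15 and Krt17 alike, flox/flox replicate 4 was the highest of the 8 glands.

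Krt15, a type I keratin of basal cells and of the hair follicle bulge, had the widest spread of the family. It read 438, 386, 393 and 337 in flox/+ glands, and 251, 231, 282 and 660.4 in flox/flox glands. Thus 3 flox/flox glands lay below every control and the other one far above. The log2 difference over all glands was -0.25 ± 0.26 (95% interval -0.83 to 0.33, limma adjusted p = 0.799). Without flox/flox replicate 4 it was -0.58 ± 0.10 (95% interval -0.81 to -0.35, unadjusted p = 2.25e-04, limma adjusted p = 0.136), short of the threshold. Without the same gland the differences of the other basal keratins were -0.17 ± 0.13 for Krt5, 0.05 ± 0.09 for Krt14 and -0.03 ± 0.09 for Krt17. The SD of log2 values was over 3 times as large in flox/flox as in flox/+ glands for 3 of the 4 basal keratins (Krt5, Krt15 and Krt17), which 5.68% of all genes showed. Krt24, Krt31 and Krt39 of other classes passed the same ratio, making 6 of 52 keratins (11.5%).

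**Figure D2:**
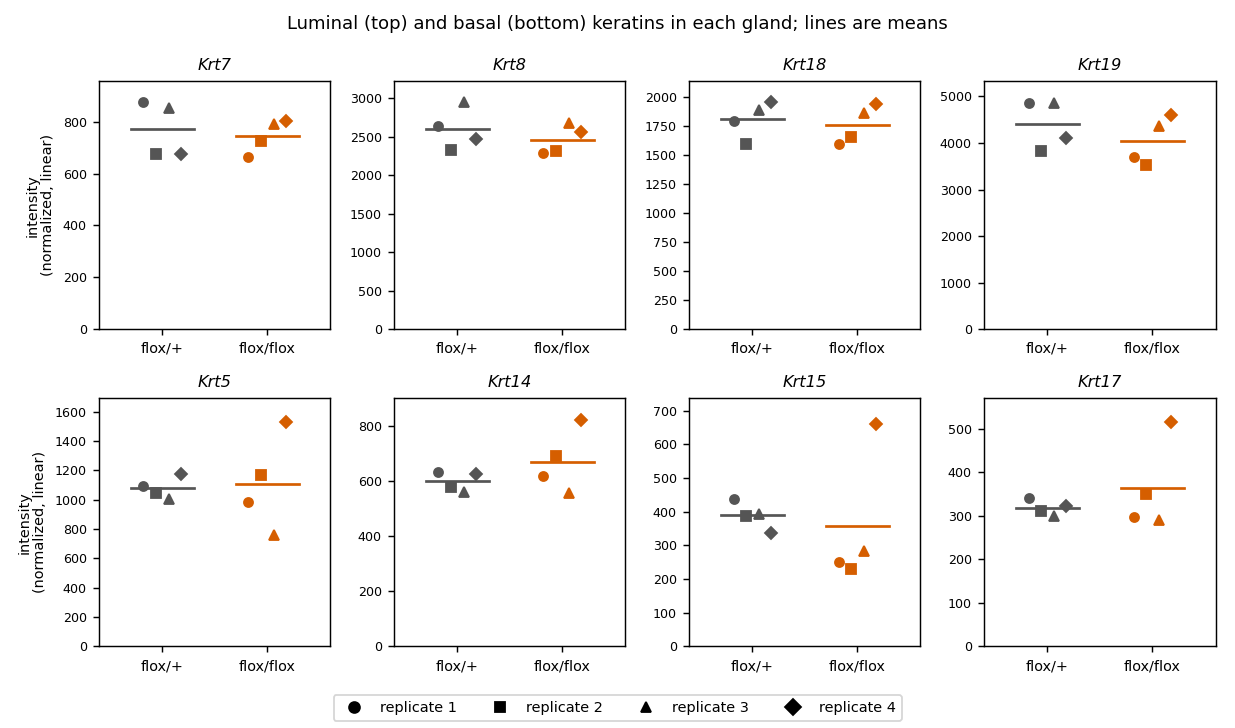
Normalized intensity (linear scale from 0) of 4 luminal keratins (top row) and 4 basal keratins (bottom row) in each gland, with the marker shape giving the replicate and the line the genotype mean. In the bottom row flox/flox replicate 4 (diamond) is the highest gland for each gene, and for Krt15 the other 3 flox/flox glands (251, 231 and 282) lie under all controls.

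Against the mean of the other 7 glands, flox/flox replicate 4 was higher by 0.99 for Krt15, 0.68 for Krt17, 0.57 for Krt5 and 0.42 for Krt14 on the log2 scale. An excess of at least that of Krt14 was found for 173 of all genes (0.868%). Of the 15 basal and myoepithelial markers that are not keratins, 6 were highest in the same gland (Acta2, Myh11, Cnn1, Tagln, Cdh3 and Itgb4), where 7.79% of all genes were highest. The other 9 were not, and 5 of the 15 lay below the mean of the other glands there: Sparc (-0.23), Igfbp2 (-0.22), Oxtr (-0.13), Vim (-0.10) and Nrg1 (-0.07). The smooth muscle kinase Mylk was at 0.01, and the median excess of the 15 was 0.18. Myh11, the smooth muscle myosin, read 1428 there against 937 to 1269.7 in the other glands, and Tagln, which binds actin, 1843 against 1256 to 1396. Trp63, the transcription factor of basal cells, was not among the 6 and read 268 there against 191 to 273 elsewhere. The summed intensity of these 15 markers ran from 22823 to 25848 in flox/+ and from 22930.2 to 24099 in flox/flox glands, with Lgr5 the dimmest on average at 176. The brightest members weigh most in it: of the 22823 in flox/+ replicate 1, Sparc gave 7948, Vim 5046 and Acta2 4348. Stroma was measured with the ducts, and its part in Sparc and Vim was not tested. The part of the 15 markers in the high keratin values of flox/flox replicate 4 was not tested either.

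A balance of luminal over basal keratins was formed in each gland from the mean log2 of Krt8, Krt18 and Krt19 minus that of Krt5, Krt14 and Krt15. Because probe sets differ in brightness its level has no meaning, and only its change between glands is read. It was 2.06, 1.94, 2.28 and 2.08 in flox/+ glands and 2.11, 2.02, 2.47 and 1.58 in flox/flox glands. The means were 2.09 ± 0.14 and 2.05 ± 0.36 (SD, n = 4 each), closer than the spread of either group. The difference of -0.04 turned to 0.11 without flox/flox replicate 4 and to 0.02 without flox/+ replicate 3, and was -0.18 without flox/flox replicate 3. Within flox/flox, replicate 4 held the lowest and replicate 3 the highest balance of all 8 glands.

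The epidermal keratins showed small differences in both directions. Krt1, the type II keratin of differentiating epidermis, read 555, 536, 581 and 513 in flox/+ and 497, 463, 488 and 477 in flox/flox glands. No values overlapped, and the log2 difference was -0.18 ± 0.06 (unadjusted p = 0.0193, limma adjusted p = 0.377). Its partner Krt10 read 176, 179, 199 and 171.3 in flox/+ and 168, 168, 170.8 and 159 in flox/flox glands. These ranges met without overlap, with a difference of -0.11 ± 0.07 (unadjusted p = 0.116, limma adjusted p = 0.596). The log2 ratio of Krt1 to Krt10 was 1.51 ± 0.04 in flox/+ and 1.45 ± 0.05 in flox/flox glands (SD, n = 4), a difference of -0.06. Krt1 had an unadjusted p under 0.05 in 16 of 19 alternative settings, and neither Krt1 nor Krt10 was free of overlap with the values as deposited. Krt2, of the upper epidermis, differed by -0.22 ± 0.09 (unadjusted p = 0.0358, limma adjusted p = 0.456). Krt80, a type II keratin linked to desmosomes, was the member with the highest difference, at 151, 159.8, 167 and 144 in flox/+ and 218, 169.7, 160.2 and 177 in flox/flox glands (0.19 ± 0.09, limma adjusted p = 0.508). Without flox/flox replicate 1, the gland at 218, the Krt80 difference was 0.11.

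Beside these, 24 measured markers of the cornified epidermis that are not keratins, such as the kallikrein Klk7, had a median log2 difference of -0.04. Their summed intensity ran from 3150 to 3501 in flox/+ and from 3024 to 3317 in flox/flox glands. Only 9 of the 24 exceeded 145.4, the 95th percentile of the olfactory receptor genes described below. The dimmest, Flg2 at 41.6, was under the median of those receptor genes, 51.3. Klk7 alone of the list had an unadjusted p under 0.05 (-0.24 ± 0.06), or 4.17% of the 24 beside 5.46% of all genes lower. The 11 measured sebaceous gland genes had a median of 0.04, and 5 of them exceeded the olfactory receptor percentile. Their summed intensity was higher in flox/flox glands without overlap, from 4259.8 to 5285 in flox/+ and from 5325 to 6745 in flox/flox glands. Such a sum has no share over all genes to set beside it. Elovl3, a fatty acid elongase of that list, read 191, 58.2, 43.0 and 288 in flox/+ and 567, 457, 292 and 680.3 in flox/flox glands (1.94 ± 0.47, limma adjusted p = 0.212). It alone of the 11 had an unadjusted p under 0.05, where 4.8% of all genes were higher and 5.46% lower. Of the 11 genes 4 had negative differences, Awat1 (-0.19 ± 0.09) among them. The part of skin carried with the glands in the values of epidermal keratins was not tested. Nor was the part of fat, measured with the ducts, in the sum of the sebaceous gland genes.

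Hair sheath keratins, made in the inner root sheath and the layer around it, all had negative differences, or 8 of 9 as deposited or with median centring, where Krt26 turned. Krt28, a type I keratin of the inner root sheath, read 136, 132.3, 139 and 164 in flox/+ and 131.8, 99.0, 106 and 115 in flox/flox glands. The groups did not overlap, although flox/flox replicate 1 came close to the lowest control. The log2 difference of Krt28 was -0.30 ± 0.09 (95% interval -0.51 to -0.10, unadjusted p = 0.00805, limma adjusted p = 0.294). It was at an unadjusted p under 0.05 in all 18 alternatives that kept the gene, with differences between -0.37 and -0.23. Its neighbour in the type I cluster, Krt27, read 133, 107, 108 and 109 in flox/+ and 93.2, 113, 85.4 and 90.2 in flox/flox glands (-0.23 ± 0.09, limma adjusted p = 0.450). Their type II partner Krt71 differed by -0.15 ± 0.09 and the companion layer keratin Krt75 by -0.11 ± 0.07. The other 5, Krt25, Krt26, Krt72, Krt73 and Krt74, had differences between -0.07 and -0.01, and the median of the 9 was -0.07.

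The hair shaft keratins had a median of -0.08, with 11 of 14 negative. Krt36, a type I shaft keratin, read 122, 120.1, 131 and 118 in flox/+ and 104, 117, 108 and 108 in flox/flox glands, without overlap (-0.15 ± 0.06, unadjusted p = 0.0414, limma adjusted p = 0.468). It was at an unadjusted p under 0.05 in only 6 of the 17 alternatives that kept the gene. The other named members of the class were Krt40 (-0.16 ± 0.08) and Krt87 (-0.16 ± 0.08). Members that resemble each other closely, such as Krt33a and Krt33b, Krt6a and Krt6b, or Krt86 and Krt87, may share probe signal and are uncertain one by one. Flox/flox replicate 2 was the lowest gland for 7 of the 14 shaft keratins and for 22 of all 52 keratins, whereas over all genes it was lowest for 17.2%. Flox/+ replicate 3 was highest for 13 of the 52, against 13.3% of all genes.

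The 44 measured keratin-associated proteins, which bind shaft keratins in hair, had a median difference of -0.00, with 4 higher and 2 lower (4.55%) at an unadjusted p under 0.05, beside 4.8% and 5.46% of all genes. Their summed intensity ran from 7606 to 7959.6 in flox/+ and from 6929 to 8020.4 in flox/flox glands, lowest in flox/flox replicate 2. The 18 measured hair follicle genes that are not keratins, trichohyalin among them, had a median of -0.01 and sums of 2242 to 2474 and of 2314 to 2499. Only 15 of the 44 and 7 of the 18 exceeded the olfactory receptor percentile. Whether follicle RNA took part in the hair keratin values was not tested.

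**Figure D3:**
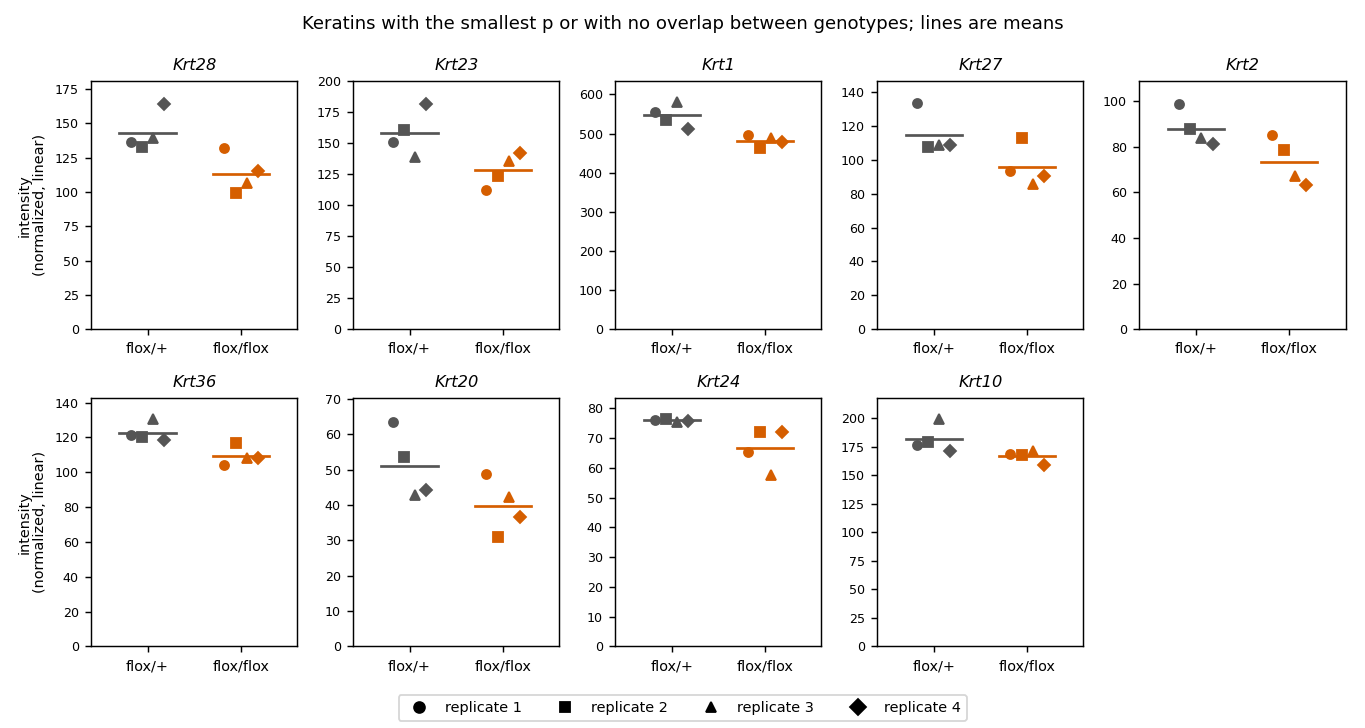
Normalized intensity (linear scale from 0) in each gland for the 7 keratins with an unadjusted p under 0.05 (Krt28, Krt23, Krt1, Krt27, Krt2, Krt36 and Krt20) and the 2 others without overlap between genotypes (Krt24 and Krt10). Lines are genotype means, and the flox/flox mean lies 0.11 to 0.30 under the control mean on the log2 scale.

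Keratins of mucosa and cornea had a median of -0.10. Krt24 read 76.1, 76.2, 75.3 and 75.8 in flox/+ glands and 65.2, 71.8, 57.7 and 72.1 in flox/flox glands (-0.16 ± 0.07, limma adjusted p = 0.493). The control values were almost equal, with an SD of 0.400, and all flox/flox values lay lower. Krt4 of the oesophagus (-0.12 ± 0.10) and Krt12 of the cornea (-0.10 ± 0.09) overlapped between genotypes. Of the keratins of stressed epidermis and nail bed, Krt16 differed by -0.16 ± 0.08 and Krt42 by -0.11 ± 0.09, while Krt6a, a type II partner of Krt16, differed by 0.14 ± 0.11, and none of the 3 passed. The Krt6a difference was 0.04 without flox/+ replicate 1 and 0.23 without flox/+ replicate 4.

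The array gives no detection calls, so dim members were set beside 1027 olfactory receptor genes, which are taken as silent in the gland. Their mean intensities had a 95th percentile of 145.4, which 24 of the 52 keratins exceeded. All 4 basal keratins, 4 of 6 simple keratins (not Krt20 and Krt23), 5 of 8 epidermal and 7 of 14 shaft keratins were above it, and 0 of the 9 sheath keratins were. Krt23, at 158 ± 18.3 in flox/+ and 129 ± 13.1 in flox/flox glands, was under it on average. Krt20, at a mean of 45.3 over all glands, was also under the median of the olfactory receptor genes, 51.3, as was Krt25 (42.4). Of the 7 keratins at an unadjusted p under 0.05, 6 were among the dimmer 28, and Krt1 was the exception. That 1 of 24 brighter keratins stands beside 5.38% of all genes above the same percentile that were lower at this level. A count of 1 is too small to set the brighter keratins apart from that background or to equate them with it. Negative differences numbered 18 of the brighter 24, against 49.3% of all genes above the percentile, and 22 of the dimmer 28. Shares over all genes under the percentile were not counted, so the 6 and 22 of the dimmer 28 have no background of their own. The median difference was -0.11 over these 28 and -0.05 over the brighter 24. Probe sets differ in brightness for the same amount of RNA, so this gauge is rough, and whether the dim members carried keratin RNA at all was not tested.

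By chromosome, 22 of 27 keratins on chromosome 11 and 18 of 25 on chromosome 15 had negative differences, with medians of -0.10 and -0.05. Over all genes of these chromosomes 54.2% and 51.5% were negative, with medians of -0.01 and -0.00. Lower members at an unadjusted p under 0.05 numbered 5 of 27 on chromosome 11 (18.5%, with 5.18% of all its genes) and 2 of 25 on chromosome 15 (8.0%, with 4.69% of all its genes).

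**Figure D4:**
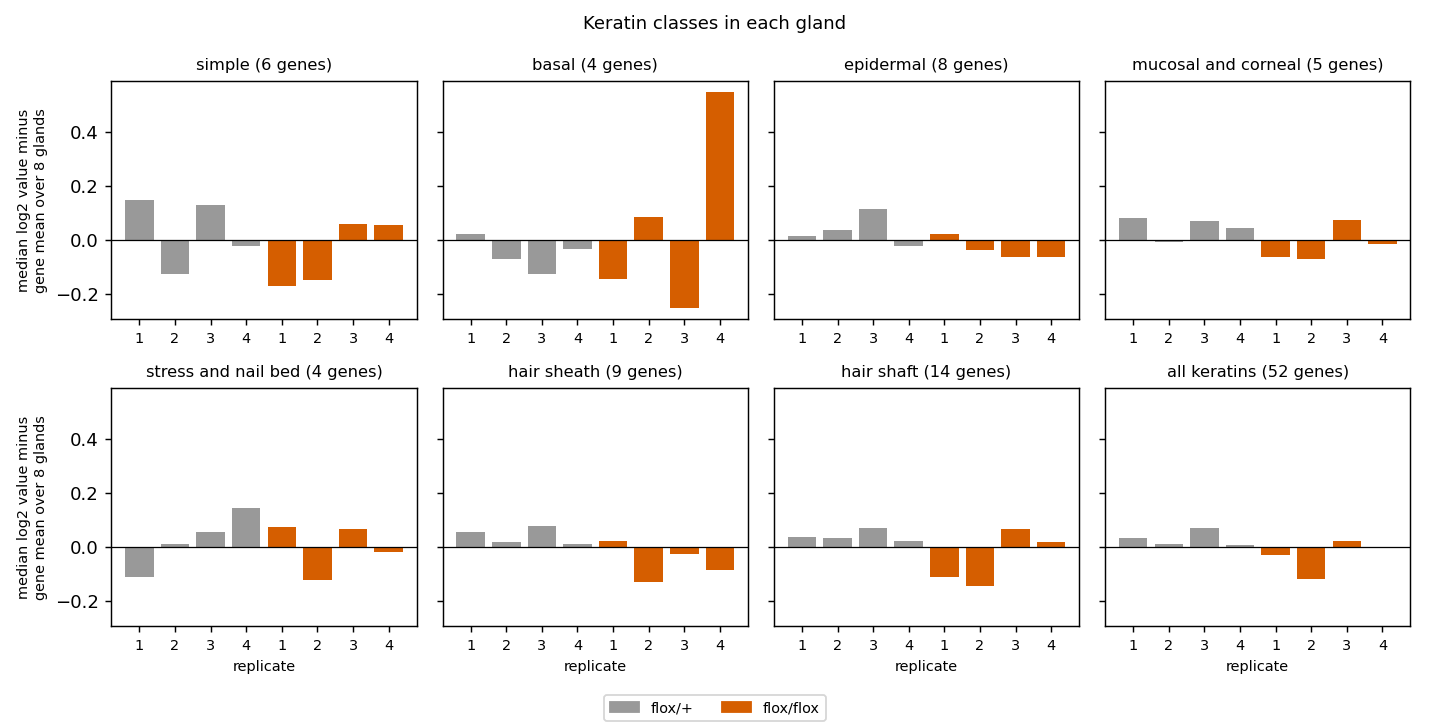
For each keratin class, the median over its genes of the log2 value minus that gene's mean over the 8 glands (bars, 1 per gland, grey flox/+ and orange flox/flox, replicates 1 to 4 in each). The basal class stands at 0.55 in flox/flox replicate 4, and the median of all 52 keratins is lowest in flox/flox replicate 2 (-0.12).

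Genes that act with keratins showed no call either. Among 16 measured desmosome and plakin genes, which anchor keratin filaments at cell contacts, 1 was higher and 2 lower at an unadjusted p under 0.05, where 4.8% of all genes were higher and 5.46% lower. These counts are too small to set the list apart from that background. The cadherin Dsc2 read 156, 157, 143 and 190.1 in flox/+ and 118, 128, 134 and 123 in flox/flox glands (-0.32 ± 0.09, limma adjusted p = 0.246). The plakin Ppl (periplakin), which links filaments to the cell edge, read 158, 172, 122 and 168 in flox/+ and 207, 218, 174 and 205 in flox/flox glands (0.35 ± 0.11, limma adjusted p = 0.290). Neither overlapped between genotypes. The desmosomal cadherin Dsg4 of hair was the other lower gene (-0.24 ± 0.11). The list had a median of -0.06, with 11 of 16 negative.

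None of the 6 hemidesmosome genes reached an unadjusted p under 0.05, and their median was -0.01. Plectin (Plec), which ties keratins to the basement membrane contacts, came closest (0.12 ± 0.06), followed by the integrin chain Itga6 (-0.11 ± 0.07). Among 13 other intermediate filament genes, the lamin Lmnb1 (-0.35 ± 0.10, limma adjusted p = 0.281), the neuronal filaments Ina (-0.19 ± 0.08) and Nefh (-0.15 ± 0.06) were lower and synemin (Synm, 0.18 ± 0.06) higher at an unadjusted p under 0.05. Of 19 transcription factors known to act on keratin genes or epithelial differentiation, Gata3 was lower (-0.48 ± 0.14, limma adjusted p = 0.259), and Klf4 (0.48 ± 0.14, limma adjusted p = 0.278) and Tfap2a (0.21 ± 0.08) were higher at that level. Lower members made up 23.1% of the 13 filament genes and 5.26% of the 19 factors, beside 5.46% of all genes lower and 4.8% higher. Whether either list differed from that background was not tested. Klf4, a factor of differentiating epithelia, read 445, 443, 635 and 515 in flox/+ and 817, 638, 835 and 581 in flox/flox glands, so that 1 flox/flox gland lay under the highest control.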

How the data were processed

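RNA from 8 mammary glands was read on Affymetrix Gene 1.0 ST arrays. Values were deposited as intensity per probe set, not log-transformed. The submitters' processing notes name PLIER and Expression Console 1.0 (Affymetrix). How background was corrected, whether arrays were normalized to each other and which genome build was used is not given in the sources used here. Of 35557 probe sets, 21789 had 1 gene symbol in the platform annotation (21698 matched to RefSeq by identifier), 1621 several and 12147 none. The brightest probe set stood for each of 19938 genes. The number of unmatched columns is 0. Of 3 RefSeq symbols of the family without a probe set of their own, nothing was analysed here.

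Values plus 16 were taken to log2 and quantile normalized over all probe sets, since array percentiles spread by up to 0.245. The 2-group test was limma's, version 3.58.1 under R 4.3.3 (functions lmFit and eBayes, Benjamini-Hochberg over all genes, threshold 0.05), and Sox9 also with an exact permutation test of 70 assignments. Scripts were tested on simulated data. The members, classes and lists were chosen with earlier results of these data known, and the olfactory receptor gauge after the values were seen. Lists are described by counts and medians, with no set test. Named were Sox9, all simple and basal keratins, in each other class the 3 members with the smallest p, the brightest and those without overlap, in partner lists the 2 with the smallest p, and genes that small counts refer to. Other settings tried were deposited values, a replicate block, median centring, offsets of 1 and 64, filters on dim genes, mean over probe sets, all probe sets, trend and robust options, array weights and each array left out. Replicate numbers did not pair the glands: deviations of same-numbered glands correlated at -0.204, 0.063, 0.209 and -0.095.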

Additional observations from a re-analysis of the deposited data

Results flagged for a closer look

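In 58 groups of 4 glands (27 named keratins, Sox9 and the luminal over basal balance in each genotype), 1 value stood apart from its group by Dixon's criterion, which chance passes in about 5% of groups. It was Krt27 in flox/+ replicate 1, at an intensity of 133.2, against 107 to 109 in the other flox/+ glands.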

How the results depend on the processing

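No keratin passed the adjusted threshold in any of 19 alternatives. Of 490 values of 27 named keratins under an alternative, 475 kept their sign. The rest were Krt5, at 0.0249 as deposited, 0.0234 with median centring, 0.0228 with array weights and -0.1724 to 0.1601 with a gland left out, and Krt7, at 0.0018 as deposited and 2e-04 with median centring. With a gland left out Krt7 ran from -0.0984 to 0.0237, Krt17 from -0.0315 (without flox/flox replicate 4) to 0.2337 and Krt18 from -0.0962 to 0.0101. Lower members at an unadjusted p under 0.05 (7) numbered 4 as deposited or with median centring, beside 3.51% and 3.87% of all genes. They numbered 3 without the lowest 1 in 3 genes (28 members kept, 5.39% of all genes lower). Among genes above the olfactory receptor percentile, an alternative chosen after seeing the data, there was 1 (24 kept, 5.38% of all genes lower). The replicate block gave 6 (5.04% of all genes), an offset of 1 gave 8 (5.46%) and array weights gave 9 (5.6%). An offset of 64 gave 5 (5.27%), and the trend and robust options gave 5 (5.16%). The mean over probe sets gave 7 (5.45%), and all probe sets gave 6 (4.84%). With a gland left out they numbered 4 to 10, beside 4.28% to 5.69% of all genes. There were 4 without flox/+ replicate 1 or 2 (5.01% and 5.22% of all genes) and 10 without flox/+ replicate 4 (5.23%). Higher members numbered 0 to 2 (2 without flox/flox replicate 3: Krt14 and Krt80, where 4.57% of all genes were higher). Lower members without overlap (5) numbered 1 as deposited, 3 and 2 with the filters and 6 to 8 with a gland left out (8 without flox/+ replicate 4 or flox/flox replicate 1, 3 or 4), and higher ones 0 to 1. The share of all genes without overlap was counted in the main setting only, so these counts have no background of their own. Negative differences (40 of 52) numbered 21 of 28 and 18 of 24 with the filters, beside 49.7% and 49.3% of all genes. With a gland left out they numbered 35 to 41, beside 50.1% to 53.6% of all genes. Without the lowest 1 in 3 genes the epidermal median was 0.0079 over the members kept. The hair sheath median was then -0.2067, but over Krt28 and Krt75 only, the sheath keratins that this filter kept. With a gland left out the medians ran from -0.146 to -0.0458 (epidermal), -0.154 to -0.0343 (mucosa and cornea) and -0.102 to 0.194 (basal). The simple median ran from -0.156 to -0.0451, the hair sheath median from -0.1131 to -0.035, the hair shaft median from -0.1135 to -0.0509 and that of stress and nail bed from -0.0461 to 0.0243. The last was also 0.0073 with array weights and -0.1064 with either filter, where it is the value of Krt42 alone. The balance ran from -0.182 to 0.1126 with a gland left out and from -0.057 to -0.0388 under the scalings and offsets. Overlap was not recounted under the block, variance options or array weights, which leave the values as they are. With the replicate block Krt36 went from an unadjusted p of 0.0414 to 0.083 (limma) and left the lower members, and no keratin passed the adjusted threshold.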
